A study of Homo sapiens with 12 samples.

Results

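HMGCS1, MVD and STARD4 are 3 genes of cholesterol supply, and their levels were followed through 4 drug treatments of A2058 cells. They were taken by name out of 14580 genes with a symbol on the array, each read by its brightest probe set over the 12 arrays, and each had 1 probe set. A2058 is an established human melanoma line with an activating BRAF mutation. The cells received DMSO, the solvent alone; 100 nM dabrafenib with 10 nM trametinib (DT); 1 µM entinostat (E); or all 3 drugs at those doses (DTE). All were sampled 24 h after treatment, with 3 arrays per group. Dabrafenib inhibits the kinase BRAF, trametinib inhibits MEK, the next kinase of the same pathway, and entinostat inhibits class I histone deacetylases. All arrays come from 1 line, and the labels describe the triplicates both as biological and as technical, so p-values here cover only array-to-array spread, possibly technical. The number of arrays limits the precision of every value.

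Cholesterol is built from acetyl-CoA. HMGCS1, the cytosolic HMG-CoA synthase, joins acetyl-CoA to acetoacetyl-CoA just before the rate-limiting reductase, and MVD, mevalonate diphosphate decarboxylase, makes isopentenyl diphosphate near the end of the mevalonate arm. STARD4 makes no sterol: it is a small soluble START domain protein that carries cholesterol between membranes. When sterol in the endoplasmic reticulum is low, SCAP escorts the transcription factor SREBP2 to the Golgi for cleavage, and the released factor, with partners such as NF-Y and Sp1, raises transcription of the synthesis enzymes and of STARD4. INSIG proteins hold SCAP back when sterol is plentiful. Sterol synthesis supplies membrane and the isoprenoid tails of RAS-family proteins.

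The promoter sequences are shown because the levels of the 2 enzymes and of the carrier moved apart under these drugs. They are the 250 bases before the start of each gene in RefSeq on GRCh38.p14, all on the minus strand, written 5′ to 3′ along the gene. Capitals mark matches to CCAAT, the box bound by NF-Y (ATTGG on the opposite strand), and to GGGCGG, the GC box bound by Sp1 (CCGCCC on the opposite strand). No match of one overlapped a match of the other. HMGCS1 lies at chr5:43313413-43313662, MVD at chr16:88663092-88663341 and STARD4 at chr5:111512536-111512785.
HMGCS1: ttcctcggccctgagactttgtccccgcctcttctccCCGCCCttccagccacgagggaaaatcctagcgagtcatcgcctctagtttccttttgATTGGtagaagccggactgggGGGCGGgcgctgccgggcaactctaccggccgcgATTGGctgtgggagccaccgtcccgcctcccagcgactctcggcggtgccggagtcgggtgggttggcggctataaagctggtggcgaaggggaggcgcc
MVD: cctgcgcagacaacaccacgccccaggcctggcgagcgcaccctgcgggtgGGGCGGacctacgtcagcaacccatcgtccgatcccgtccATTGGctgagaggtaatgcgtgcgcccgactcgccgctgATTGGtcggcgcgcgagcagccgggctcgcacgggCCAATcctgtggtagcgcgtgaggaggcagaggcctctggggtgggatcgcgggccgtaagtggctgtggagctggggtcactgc
STARD4: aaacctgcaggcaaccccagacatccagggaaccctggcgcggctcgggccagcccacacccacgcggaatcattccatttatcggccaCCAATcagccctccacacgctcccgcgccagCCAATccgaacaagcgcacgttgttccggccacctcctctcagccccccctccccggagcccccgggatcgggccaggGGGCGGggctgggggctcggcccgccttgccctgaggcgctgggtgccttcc
HMGCS1 held 2 CCAAT boxes, both on the opposite strand, with the near one starting 100 bases before the gene. MVD held 3, of which 2 were on the opposite strand, and its nearest began 85 bases before the start. STARD4 held 2, both on the gene's own strand, the nearer beginning at 130 bases. GC boxes numbered 2 in HMGCS1, 1 in MVD and 1 in STARD4. Over all 35093 windows of this length in the RefSeq table, 32% held a CCAAT box, 9.52% held at least 2, and 42.6% held a GC box. The E-box CACGTG, in 6.34% of windows, and the sterol regulatory element TCACNCCAC, in 0.883%, matched none of the 3 windows on either strand. The 15 sterol synthesis genes with a window, HMGCS1 and MVD included, had 19 windows. Of these windows 13 held a CCAAT box, 15 held a GC box and 0 held the E-box or the sterol element. Counted by gene, where a match in any window sufficed, 12 held a CCAAT box and 12 held a GC box. HMGCS1 has a second annotated start, whose window held 2 GC boxes and no CCAAT box. Each motif was searched as 1 pattern of letters, so elements with other letters were not counted. The lack of a match therefore does not show that a promoter lacks a sterol regulatory element. These matches describe letters and were not tested for binding.

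**Figure D1:**
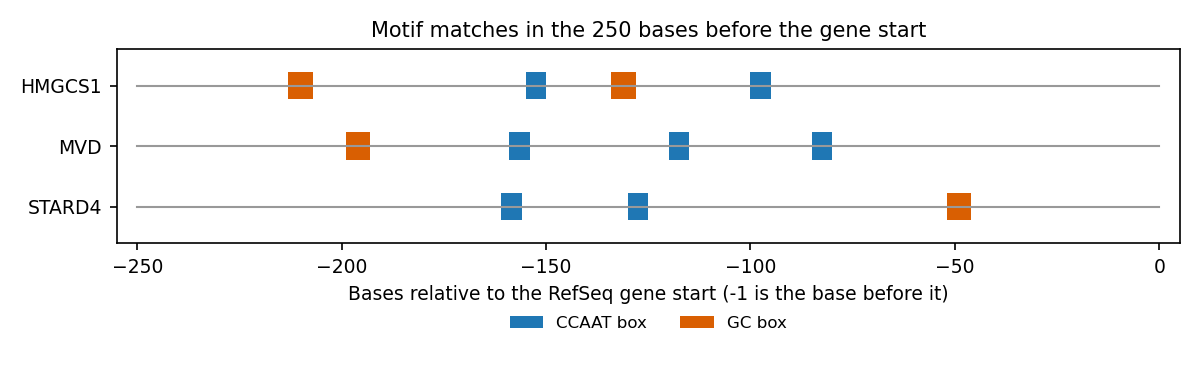
Matches to the CCAAT box (blue) and the GC box (orange) on either strand in the 250 bases before the RefSeq start of HMGCS1, MVD and STARD4; the horizontal axis is distance from the start in bases. HMGCS1 shows 2 CCAAT boxes, MVD 3 and STARD4 2, all between 161 and 81 bases before the start.

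The 3 genes divided by drug. HMGCS1 rose about as far with DT as with DTE and was not called with entinostat alone. STARD4 rose with entinostat and with DTE. MVD rose in all 3 treated groups as deposited, with the highest mean in DT, which was not called different from DTE. Against DMSO, DT called 2 of the 3 genes higher (HMGCS1 and MVD) and 0 lower, where 3.23% of all genes were called higher and 24.1% lower at an adjusted p under 0.05 in limma. Entinostat called 2 higher (MVD and STARD4), against 12.5% of genes higher and 3.54% lower. DTE called all 3 higher, against 9.64% higher and 22.5% lower. Adding entinostat to DT called 1 higher, STARD4, against 13.8% of genes higher and 5.09% lower. Adding DT to entinostat called 1 higher, HMGCS1, against 2.08% higher and 22.4% lower. Additivity was also tested, as DTE minus DT less the difference of E from DMSO on the log2 scale. limma called 0 of the 3 genes as departing from it, with 1 of them, MVD, at an unadjusted p under 0.05; over all genes 0.562% were called above and 0.473% below the sum. These comparisons share arrays: DMSO and DTE each stand in 4 of the 6.

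The arrays themselves moved with treatment. Their median log2 intensity ran from 4.58 to 4.80 in DMSO, 4.40 to 4.60 in DT, 4.87 to 4.90 in E and 4.61 to 4.69 in DTE. The median log2 change over all genes was -0.17 in DT, 0.07 in E and -0.11 in DTE against DMSO, 0.06 in DTE against DT and -0.19 in DTE against E. Changes are therefore given as deposited and, in many cases, also after quantile normalization, which sets all arrays to 1 distribution. A value given only once is as deposited, and its size or call may differ after quantile normalization. After it DT called all 3 genes higher, with 8.55% of genes higher and 7.86% lower, and entinostat called STARD4 alone, with 9.67% higher and 8.45% lower. DTE called all 3, with 14.2% higher and 14.2% lower. DTE against DT called STARD4 higher, with 12.2% higher and 12% lower, and DTE against E called HMGCS1 and MVD higher, with 6.99% higher and 5.84% lower. DUSP6, a transcriptional readout of ERK signalling, lay between 8.56 and 9.41 in the 6 arrays without DT and between 3.33 and 4.45 in the 6 with it. All 7 measured melanocyte markers lay above the lower quartile of genes. Total RNA of a culture cannot tell fewer cells of one kind from less RNA per cell.

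HMGCS1 followed dabrafenib and trametinib. On the log2 scale its level was 5.99, 6.35 and 6.32 in the DMSO arrays and 7.25, 7.53 and 7.34 in the DT arrays. With entinostat it was 6.28, 6.36 and 6.53, and with all 3 drugs 7.36, 7.43 and 7.59. The 6 arrays with DT all lay above the 6 without, and within each of these sets the groups overlapped. Group means were 6.22 ± 0.20 in DMSO, 6.39 ± 0.13 in E, 7.38 ± 0.14 in DT and 7.46 ± 0.12 in DTE (SD, n = 3), in that order. The neighbours DMSO and E, and DT and DTE, were not called different, while E and DT did not overlap.

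The rise of HMGCS1 was 2.23-fold with DT (log2 change 1.16, SE 0.13, adjusted p = 3.64e-06 in limma), and 1.50 on the log2 scale after quantile normalization. It was the 53rd highest change of all 14580 genes in that comparison. With DTE the rise over DMSO was 2.37-fold (1.24, adjusted p = 1.45e-06; 1.49 after quantile normalization), and over entinostat alone 2.10-fold (1.07, adjusted p = 1.38e-05; 1.40 after quantile normalization), where it ranked 37th. Entinostat left it at 0.17 above DMSO, with an interval from -0.11 to 0.45 (95%, adjusted p = 0.452), and that value was -0.03 after each array was centred on its median. Entinostat added to DT gave 0.08 (-0.19 to 0.36, adjusted p = 0.744; -0.01 after quantile normalization). The departure from additivity was -0.09 (adjusted p = 0.909). The summed intensity of the 7 melanocyte markers also differed between groups, and was lower in DTE than in DT. It ran from 1658 to 1720 in DMSO, 2761 to 3210 in DT, 1493 to 1652 in E and 1777 to 1909 in DTE. Against DMSO, limma called 4 of the 7 higher and 0 lower with DT, 0 and 3 with E, and 3 and 1 with DTE. Over all genes the shares were 3.23% and 24.1%, 12.5% and 3.54%, and 9.64% and 22.5%. The brighter markers weigh most in the sum, and its part in the result was not tested.

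MVD rose with DT, with DTE and, as deposited, with entinostat. Its levels were 5.62, 5.59 and 5.20 in DMSO and 6.37, 6.28 and 6.42 in DT. They were 5.99, 5.89 and 6.07 in E and 6.54, 6.33 and 5.99 in DTE. All 9 treated arrays lay above the 3 DMSO arrays, the DT arrays lay above the E arrays, and DTE overlapped both. Means ran from 5.47 ± 0.24 in DMSO through 5.98 ± 0.09 in E and 6.28 ± 0.27 in DTE to 6.36 ± 0.07 in DT (SD, n = 3). DTE replicate 3 was the low array of its group and DMSO replicate 3 that of the control.

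MVD rose 1.84-fold with DT (log2 change 0.88, SE 0.15, adjusted p = 0.00021; 1.16 after quantile normalization), the 104th highest change there. With DTE it rose 1.75-fold (0.81, adjusted p = 0.000335; 0.99 after quantile normalization). The rise with entinostat was 0.51 (SE 0.15, adjusted p = 0.0217). That call was lost after quantile normalization, at 0.36 (adjusted p = 0.157), and after median centring, at 0.31 (adjusted p = 0.139); its adjusted p ran from 0.0157 to 0.157 over the 7 alternative settings. Leaving out 1 array ended it in 3 cases: DMSO replicate 3 (0.37, adjusted p = 0.13), E replicate 1 (0.51, adjusted p = 0.0573) and E replicate 3 (0.47, adjusted p = 0.0834).

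DTE was compared with DT and with E for MVD, and neither difference was called as deposited. DTE against E gave 0.30 (-0.01 to 0.61, adjusted p = 0.141), and this difference reached a call at 0.62 after quantile normalization (adjusted p = 0.0231), at 0.53 after median centring (0.0275) and at 0.45 without DTE replicate 3 (0.0339), with adjusted p from 0.0231 to 0.169 over the 7 settings. DTE against DT was -0.07 (-0.38 to 0.24, adjusted p = 0.806). The departure from additivity was -0.58, with an interval from -1.02 to -0.15 and an unadjusted p of 0.0114 that became 0.234 after adjustment over all genes.

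STARD4, the carrier, followed entinostat. Its levels were 5.43, 5.72 and 5.25 in DMSO and 6.75, 7.11 and 6.98 in E. In DT they were 5.76, 5.96 and 5.90, and in DTE 6.76, 6.77 and 7.35. The 6 arrays with entinostat all lay above the 6 without, the E and DTE arrays overlapped, and the DT arrays lay just above the DMSO arrays without overlap. Means ran from 5.46 ± 0.24 in DMSO and 5.87 ± 0.11 in DT to 6.95 ± 0.18 in E and 6.96 ± 0.34 in DTE (SD, n = 3). Between E and DTE the interval of the difference ran from -0.32 to 0.36.

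**Figure D2:**
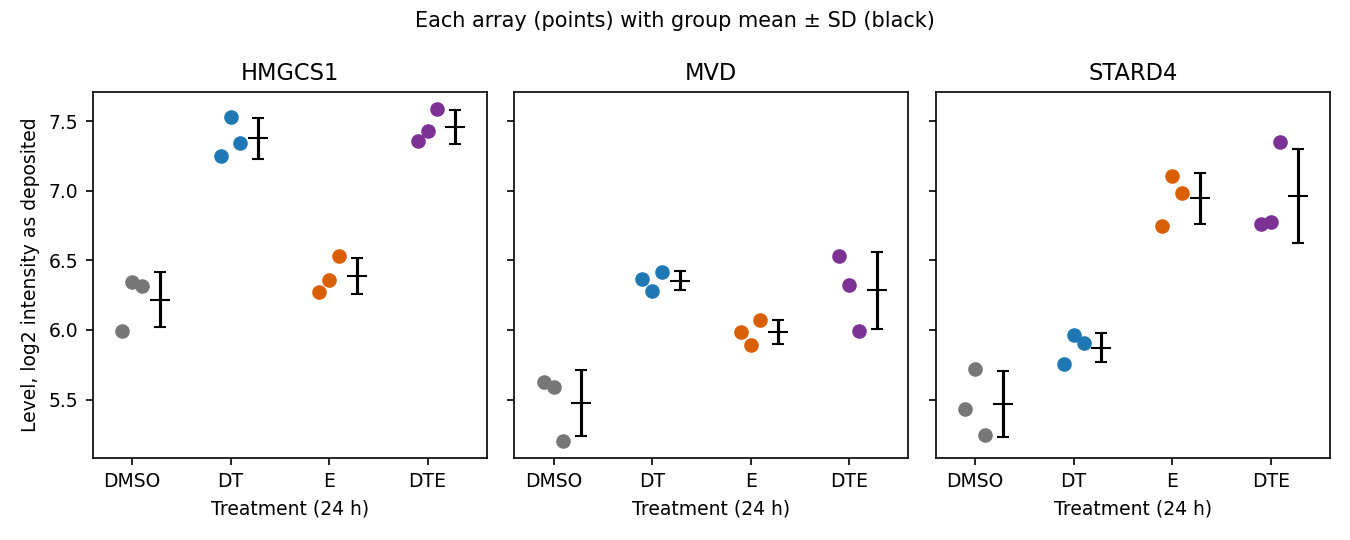
Log2 intensity as deposited (vertical axis) of HMGCS1, MVD and STARD4 in each of the 3 arrays of the 4 treatment groups, with the group mean and SD in black. HMGCS1 is high in the 6 arrays with DT and STARD4 in the 6 with entinostat, while all 9 treated arrays of MVD lie above DMSO.

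STARD4 rose 2.79-fold with entinostat (log2 change 1.48, SE 0.16, adjusted p = 4.72e-06; 1.33 after quantile normalization), the 89th highest change of all genes. With DTE it rose 2.83-fold over DMSO (1.50, adjusted p = 1.92e-06; 1.68 after quantile normalization) and 2.13-fold over DT (1.09, adjusted p = 9.24e-05; 0.99 after quantile normalization). With DT alone it stood at 0.41 (SE 0.16, adjusted p = 0.073). That change was called at 0.68 after quantile normalization (adjusted p = 0.00178) and at 0.61 after median centring (0.00757), with adjusted p from 0.00178 to 0.149 over the 7 settings. It was also called without DMSO replicate 2 (0.53, 0.0395) or without DTE replicate 3 (0.41, 0.0325). Adding DT to entinostat gave 0.02 (adjusted p = 0.95), and quantile normalization made it 0.34, still not called. The departure from additivity was -0.39 (-0.88 to 0.10, adjusted p = 0.553).

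Markers of other cell types also differed between the groups. STARD4 averaged 6.95 in E and 6.96 in DTE, while the fibroblast sum was higher in DTE than in E and the epithelial sum lower. Of 6 fibroblast markers 2 were measured, LUM and DCN, and both were called higher in E and in DTE on both scales. Of all genes, 12.5% were called higher in E and 9.64% in DTE (9.67% and 14.2% after quantile normalization). Their summed intensity ran from 131.3 to 164.7 in DMSO, 162.4 to 221.4 in DT, 253.9 to 303 in E and 410.4 to 568.5 in DTE, with DCN below the lower quartile of genes on average. The 5 measured epithelial markers of 6 summed to between 80.59 and 106.1 in DMSO and 116.7 and 133.3 in E. Their sum was lowest in DT, at 59.04 to 70.4, and ran from 73.88 to 86.9 in DTE. The 2 measured blood cell markers of 6 summed to between 19.59 and 21.98 in DMSO, 19.73 and 25.72 in E, and 15.89 and 20.07 in DTE. In DT they summed to between 11.98 and 16.32. The epithelial marker KRT5 and the blood cell marker CD14 also lay below the lower quartile on average. The part of these markers in the STARD4 result was not tested.

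**Figure D3:**
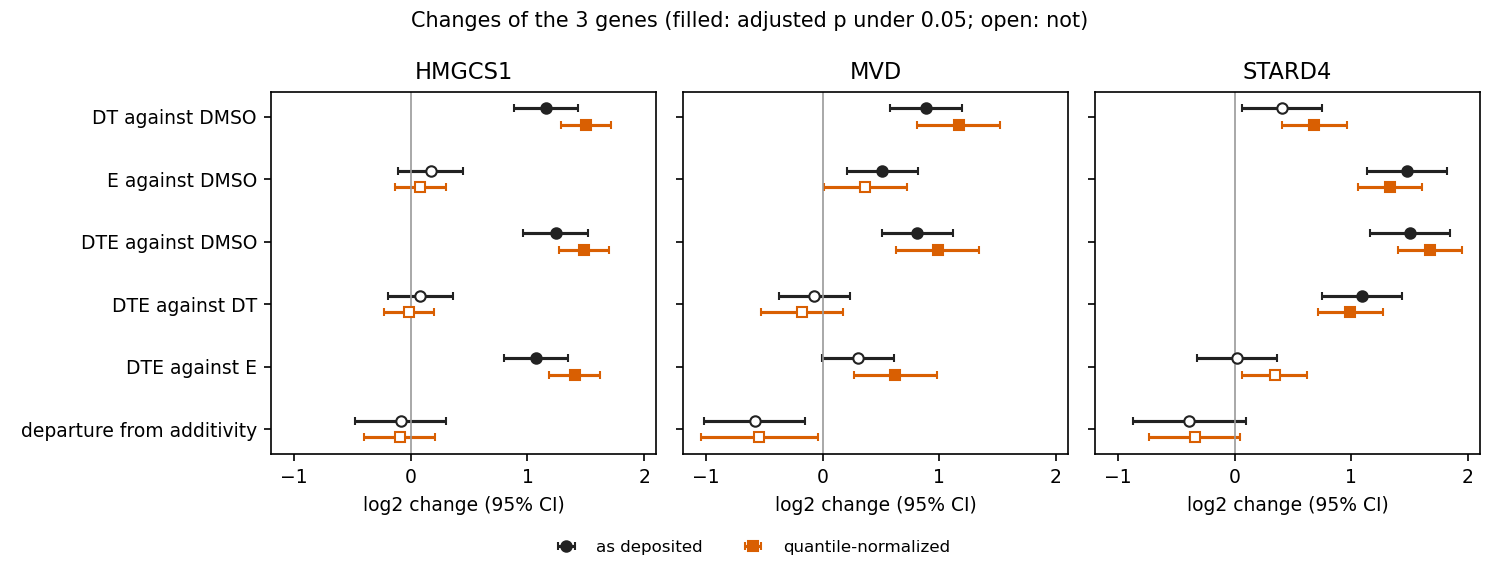
Log2 change with its 95% interval (horizontal axis) of HMGCS1, MVD and STARD4 in the 6 comparisons, as deposited (black circles) and after quantile normalization (orange squares), filled where the adjusted p was under 0.05. Filled symbols of HMGCS1 stand in the 3 comparisons that add DT, and those of STARD4 in the 3 that add entinostat plus DT against DMSO after quantile normalization.

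Whether the genes responded differently to a drug was tested within arrays. For each pair the log2 level of one gene minus that of the other was taken in every array, and the effect of adding DT, or entinostat, on that difference was averaged over arrays without and with the other drug. A two-sided exact permutation test over 400 relabellings within the other drug's strata, whose smallest p is 0.005, was adjusted over the 6 tests. With entinostat, STARD4 rose more than HMGCS1 by 1.16 (exact permutation p = 0.005, adjusted 0.01) and more than MVD by 1.07 (exact permutation p = 0.005, adjusted 0.01). HMGCS1 and MVD differed in their response to entinostat by -0.09 (exact permutation p = 0.59). With DT, STARD4 rose less than HMGCS1, the difference being -0.90 (exact permutation p = 0.005, adjusted 0.01).

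Under DT, HMGCS1 rose more than MVD by 0.52 (exact permutation p = 0.02, adjusted 0.03), a difference of 0.28 without entinostat and 0.77 with it. With DMSO replicate 1 left out it was 0.43 (exact permutation, adjusted p = 0.0675), with DT replicate 2 left out 0.47 (0.0675), and with any 1 of the 3 E arrays left out 0.49 to 0.54 (0.06). The call was lost in each of these cases. Without E replicate 2 or E replicate 3 the difference itself was no smaller, at 0.54. Leaving out 1 array also leaves fewer relabellings and so coarser p-values, and the part of this in the lost calls was not tested. STARD4 minus MVD under DT was -0.38 (exact permutation p = 0.09, adjusted 0.108) and reached -0.55 without DTE replicate 3 (adjusted p = 0.0075). Over the 12 arrays the Pearson correlation was 0.76 between HMGCS1 and MVD, 0.29 between HMGCS1 and STARD4 and 0.41 between MVD and STARD4, and these points share the treatments and the arrays' overall shift.

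Around HMGCS1 and MVD, the mevalonate arm rose with DT in part. In that comparison 3.23% of all genes were called higher and 24.1% lower (8.55% and 7.86% after quantile normalization). Of 8 measured genes of 10 listed, 5 were called higher and 0 lower with DT (7 and 0 after quantile normalization), with a median of 0.55 against -0.17 over all genes (0.88 against 0.00 after quantile normalization). The other 3 that rose were MVK, mevalonate kinase (0.74, adjusted p = 0.000183), IDI1, which interconverts the isopentenyl units (0.60, adjusted p = 0.00615), and ACAT2, which makes acetoacetyl-CoA for HMGCS1 (0.50, adjusted p = 0.00457). After quantile normalization IDI1 stood at 0.91 and ACAT2 at 0.86. PMVK, the kinase before MVD, and FDPS, farnesyl diphosphate synthase, stood at 0.09 and 0.07, not called, and were called after quantile normalization at 0.42 and 0.43. IDI2 stood at -0.20 (adjusted p = 0.427).

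With entinostat 2 of the 8 were called higher and 1 lower, with a median of 0.27 against 0.07 over all genes (1 and 1, median 0.13, after quantile normalization). Of all genes entinostat called 12.5% higher and 3.54% lower (9.67% and 8.45% after quantile normalization). PMVK rose by 0.56 beside MVD. ACAT2 went the other way: it fell by 0.55 with entinostat (adjusted p = 0.00379) and by 0.63 when entinostat was added to DT (adjusted p = 0.000898), so in DTE it stood at -0.13. With DTE 4 were called higher and 0 lower (5 and 0 after quantile normalization), at a median of 0.33 against -0.11 over all genes. They were HMGCS1, MVD, IDI1 (0.77) and MVK (0.46). Of all genes DTE called 9.64% higher and 22.5% lower (14.2% and 14.2% after quantile normalization).

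The later steps, from squalene to cholesterol, also rose with DT. Over all genes DT called 3.23% higher and 24.1% lower (8.55% and 7.86% after quantile normalization). Of 9 measured genes of 14 listed, 8 were called higher and 1 lower on both scales, with a median of 0.46 (0.78 after quantile normalization); with 1 array left out the number called ran from 5 to 9, and was 5 without DT replicate 2. TM7SF2, a sterol reductase, rose by 0.86 (adjusted p = 0.000196; 0.49 on the log2(value + 16) scale), MSMO1, a methylsterol oxidase, by 0.75 (adjusted p = 0.000383) and DHCR7, the last reductase of the pathway, by 0.58 (adjusted p = 0.00181). SQLE, squalene epoxidase, rose by 0.44, HSD17B7 by 0.52, NSDHL by 0.37, EBP by 0.33 and ERG28 by 0.46. After quantile normalization DHCR7 stood at 0.93, SQLE at 0.80, NSDHL at 0.74, EBP at 0.70 and ERG28 at 0.78. HSD17B7 was not called on the log2(value + 16) scale, at 0.27. LBR, which joins a sterol reductase to a lamin receptor of the nuclear envelope, fell by 0.81 (adjusted p = 6.54e-05; -0.43 after quantile normalization).

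Entinostat called 5 of these 9 higher and 0 lower, with a median of 0.44 (4 and 0, median 0.32, after quantile normalization). They were TM7SF2 (0.59), DHCR7 (0.55), HSD17B7 (0.53), SQLE (0.46) and MSMO1 (0.44). Over all genes entinostat called 12.5% higher and 3.54% lower (9.67% and 8.45% after quantile normalization). The call of HSD17B7 was lost after quantile normalization, at 0.32. The count of 5 was 2 without DMSO replicate 1 or E replicate 2, and 3 without DMSO replicate 3 or E replicate 3. DTE called 6 higher and 1 lower, with a median of 0.70 (8 and 0, median 0.74, after quantile normalization), led by MSMO1 at 0.98 (adjusted p = 1.71e-05), HSD17B7 at 0.91, DHCR7 at 0.82 and SQLE at 0.81. Over all genes DTE called 9.64% higher and 22.5% lower (14.2% and 14.2% after quantile normalization). Entinostat added to DT called 0 of the 9 in limma, with 4 at an unadjusted p under 0.05. After quantile normalization it called 1 higher and 2 lower. Its shares of all genes were 13.8% higher and 5.09% lower as deposited, and 12.2% and 12% after quantile normalization.

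**Figure D4:**
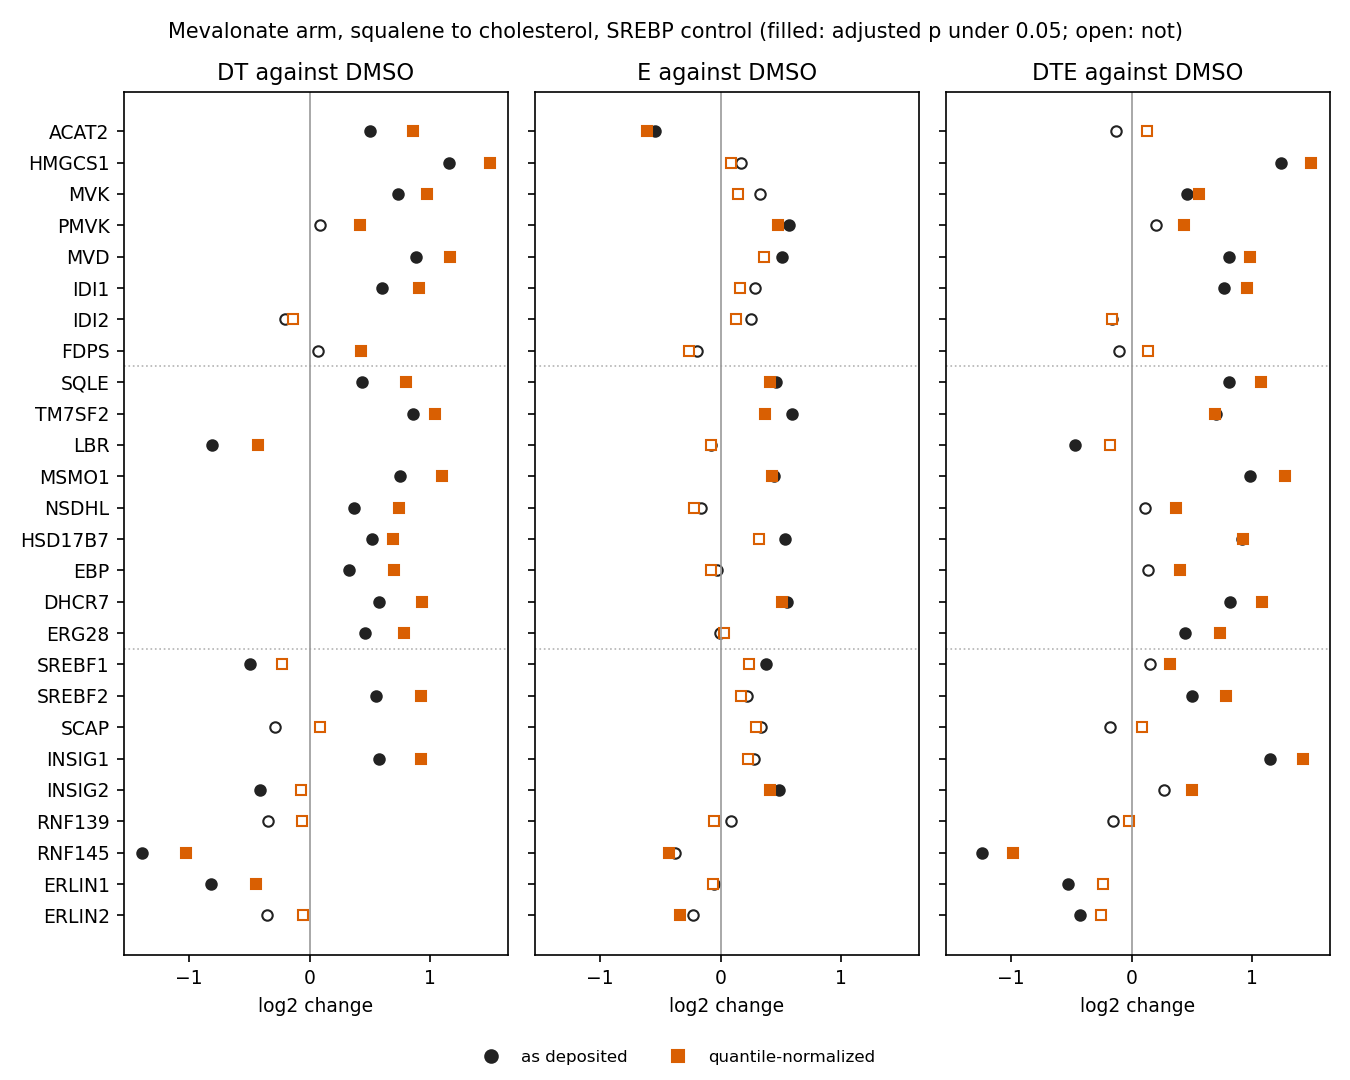
Log2 changes (horizontal axis) of the measured genes of the mevalonate arm (top), of squalene to cholesterol (middle) and of SREBP control (bottom) in DT, E and DTE against DMSO, as deposited (black circles) and after quantile normalization (orange squares), filled where the adjusted p was under 0.05. HMGCS1 has the highest synthesis gene value in DT (1.16) and DTE (1.24), and ACAT2 falls with E (-0.55).

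Of 9 measured SREBP control genes of 14 listed, DT called 2 higher and 4 lower, with a median of -0.36 against -0.17 over all genes, of which 3.23% were called higher and 24.1% lower. After quantile normalization it called 2 and 2, with a median of -0.07, against 8.55% and 7.86% of all genes. SREBF2, which encodes SREBP2, rose by 0.55 (adjusted p = 0.00416; 0.92 after quantile normalization). INSIG1, itself a target of SREBP, rose by 0.58 (adjusted p = 0.00118; 0.93 after quantile normalization). SREBF1, which encodes the paralogue with more weight in fatty acid synthesis, fell by 0.49 as deposited (adjusted p = 0.00397) and stood at -0.23, not called, after quantile normalization. RNF145, a ubiquitin ligase that acts on SCAP, fell by 1.39 (adjusted p = 5.14e-07; -1.03 after quantile normalization), and ERLIN1, a membrane partner of the SREBP system, by 0.82 (-0.45 after quantile normalization).

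INSIG1 was highest with all 3 drugs. It ran from 7.24 to 7.50 in DMSO, 7.56 to 7.73 in E, 7.90 to 8.05 in DT and 8.47 to 8.62 in DTE, with no overlap between neighbouring groups. With DTE it rose by 1.15 over DMSO (adjusted p = 7.4e-07) and by 0.58 over DT (adjusted p = 0.00137), and entinostat alone gave 0.28 (adjusted p = 0.124). The value for entinostat was called on the log2(value + 16) scale, at 0.25 (adjusted p = 0.0334), and stood at 0.08 after median centring, with adjusted p from 0.0334 to 0.653 over the 7 settings. HMGCS1, at 0.08 in DTE against DT, had no such step. SREBF2 stood at 0.22 with entinostat (adjusted p = 0.315) and rose by 0.50 with DTE (adjusted p = 0.00653). SREBF1 averaged 5.58 in DMSO, 5.96 in E and 5.73 in DTE. Its change with entinostat was 0.18 to 0.38 over the 7 settings (limma, adjusted p from 0.0063 to 0.26). When entinostat was added to DT, SREBF1 rose by 0.47 to 0.64 over these settings (limma, adjusted p from 0.000309 to 0.00545). SCAP stood at -0.29, 0.34 and -0.18 in DT, E and DTE, none called. INSIG2 was called with entinostat (0.49) and fell by 0.41 with DT, a value of -0.07 after quantile normalization. RNF139, another ligase of this system, and ERLIN2 were not called with DT, at -0.34 and -0.36, and ERLIN2 fell by 0.43 with DTE (-0.26, not called, after quantile normalization).

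STARD4 belongs to the START domain family, whose other genes were called in part. Over all genes entinostat called 12.5% higher and 3.54% lower (9.67% and 8.45% after quantile normalization). Of 14 measured genes of 15 listed, entinostat called 5 higher and 0 lower, with a median of 0.24 against 0.07 over all genes (3 and 0, median 0.15, after quantile normalization). STARD5, a close relative of STARD4, rose by 0.56 (adjusted p = 0.009) but was not called after quantile normalization, at 0.37. STARD9, a kinesin with a START domain, rose by 0.53 (adjusted p = 0.0154). With DT 1 of the 14 was called, STARD5, which rose by 0.76 (adjusted p = 0.000508). After quantile normalization 4 were called higher and 0 lower. Over all genes DT called 3.23% higher and 24.1% lower (8.55% and 7.86% after quantile normalization). STARD5 ran from 4.84 to 5.15 in DMSO, 5.57 to 5.98 in DT, 5.50 to 5.73 in E and 5.78 to 6.08 in DTE, so all 9 treated arrays lay above DMSO. With DTE 5 were called higher and 2 lower: STARD4 by 1.50 and STARD5 by 0.85 were joined by STARD9 (0.65), while STARD7 and STARD3, a late endosomal cholesterol binder, fell by 0.55 and 0.51. The call of STARD3 was lost after quantile normalization, at -0.24. Over all genes DTE called 9.64% higher and 22.5% lower (14.2% and 14.2% after quantile normalization).

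Among 18 measured sterol carriers of 24 listed, entinostat called 6 higher and 0 lower (4 and 1 after quantile normalization). Over all genes it called 12.5% higher and 3.54% lower (9.67% and 8.45% after quantile normalization). Of the carriers, STARD3, STARD4, STARD5, STARD6 and STAR stand in the START list too. GRAMD1C, which moves cholesterol from the plasma membrane to the endoplasmic reticulum, was, like STARD4, higher in the 6 arrays with entinostat than in the 6 without. It ran from 3.73 to 3.98 in DMSO, 3.91 to 4.27 in DT, 5.04 to 5.71 in E and 5.05 to 5.92 in DTE. It rose by 1.54 with entinostat (adjusted p = 2.49e-05) and by 1.55 with DTE (adjusted p = 1.15e-05), or by 0.93 and 0.94 on the log2(value + 16) scale, and stood at 0.20 with DT (adjusted p = 0.511). OSBPL6, an oxysterol-binding protein relative, rose by 0.88 with entinostat (adjusted p = 0.000192).

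DT called 2 of the 18 carriers higher and 5 lower, where 3.23% of all genes were called higher and 24.1% lower, so the lower count lies near the background. After quantile normalization it called 4 and 3, against 8.55% and 7.86%. The falls included OSBPL3 (-1.41, adjusted p = 5.03e-07), OSBPL6 (-1.19, adjusted p = 4.47e-06) and OSBPL10 (-0.98, adjusted p = 0.000147), each also called after quantile normalization. OSBPL1A rose by 0.51 (adjusted p = 0.00733; 0.85 after quantile normalization). OSBPL6 and OSBPL3 rose when entinostat was added to DT, by 1.44 and 1.10, and DTE left them at 0.25 and -0.31 of DMSO, neither called as deposited, although OSBPL6 was called at 0.49 after quantile normalization.

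**Figure D5:**
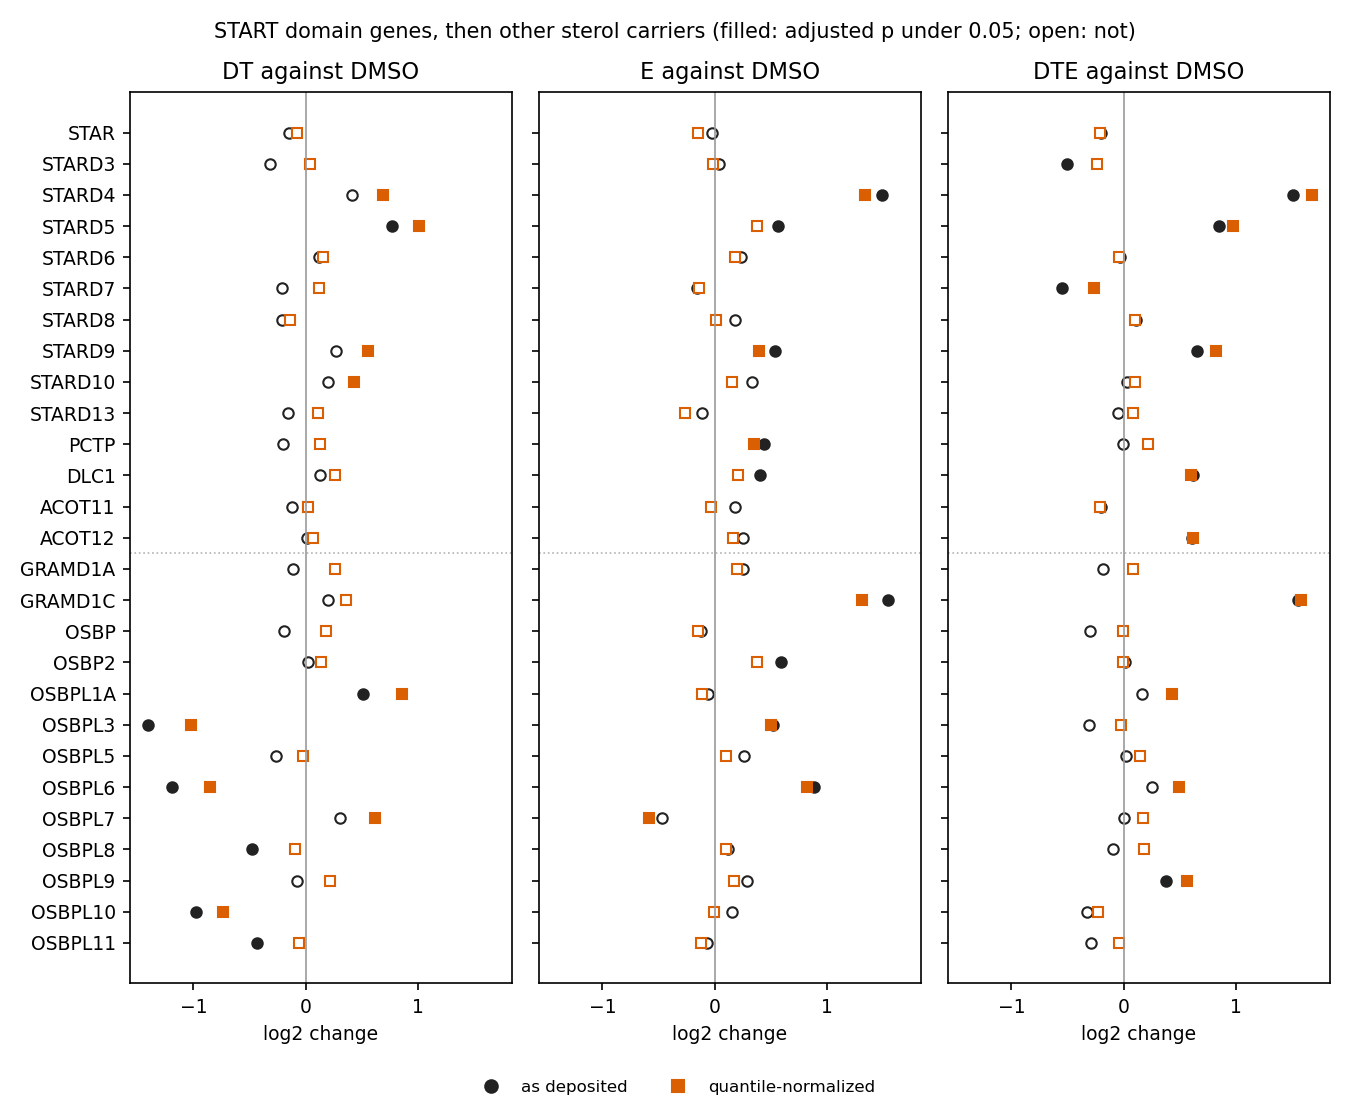
Log2 changes (horizontal axis) of the measured START domain genes (top) and other sterol carriers (bottom) in DT, E and DTE against DMSO, as deposited (black circles) and after quantile normalization (orange squares), filled where the adjusted p was under 0.05. STARD4 (1.48) and GRAMD1C (1.54) have the highest values with E, and OSBPL3 (-1.41) and OSBPL6 (-1.19) the lowest with DT.

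Some fatty acid genes share SREBP control. Of 14 measured of 17 listed, DT called 3 higher and 3 lower, against 3.23% of all genes higher and 24.1% lower, so the lower count lies near the background. After quantile normalization it called 6 and 1, against 8.55% and 7.86%. SCD, the main stearoyl-CoA desaturase, rose by 0.99 with DT (adjusted p = 6.78e-06) and by 0.96 with DTE, and stood at 0.24 with entinostat (adjusted p = 0.202). LPIN1, a phosphatidate phosphatase, rose by 0.92 with DT (adjusted p = 2.1e-05). FASN, fatty acid synthase, fell by 0.54 with DT as deposited and stood at -0.17, not called, after quantile normalization. SCD5, the paralogue of SCD, rose by 1.23 with entinostat (adjusted p = 7.16e-07) and stood at -0.11 with DT. Of 2 measured lipoprotein receptors of 8 listed, LRP1 rose by 0.96 with entinostat (adjusted p = 2.25e-05) and by 0.86 with DTE. LRP1 was also called higher with DT, at a mean of 5.85 against 5.49 in DMSO. With 1 array left out that rise ran from 0.27 to 0.44, and its call was lost in 5 cases.

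The genes most like each member were ranked by Pearson r over the 12 arrays among 10934 other genes above the lower quartile, as a description. HMGCS1 was followed most closely by MEGF9 and RNF150 (r = 0.98 each), PLPP1, a lipid phosphatase (0.98), SCD (0.97) and BEST1 (0.97). MVD was followed by SELENBP1 (0.94), QPRT, OLFML2A and its pathway neighbour MVK (0.91 each) and EPHA5 (0.91). STARD4 was followed by FNBP1L, DOCK11, GDF11 (0.98 each), SEPTIN4 and MED12L (0.97 each). After quantile normalization 7 of these 15 stayed among the 5 most like: MEGF9, RNF150, PLPP1 and SCD for HMGCS1, SELENBP1 and QPRT for MVD, and FNBP1L for STARD4. The arrays share treatments and the overall shift, so many genes follow the same groups.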

How the data were processed

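For every probe set the authors deposited an intensity on each array, on a linear scale, from 1.88 to 8728. RMA and the Transcriptome Analysis Console are named, per the submitters' processing notes, with no version; the scaling and genome build are not given in the sources used here. Of 29396 probe sets 14748 carried 1 symbol and 14648 none; symbols were updated by gene identifier, which matched for all 14748, and 156 genes had several probe sets. Dim genes were kept. A background measure per probe set was not used.

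Intensities as deposited were put on the log2 scale and fitted with limma 3.58.1 in R 4.3.3 (group means over 12 arrays, 8 residual degrees of freedom, eBayes), with Benjamini-Hochberg adjustment over all 14580 genes per comparison. Exact permutation tests of differences between genes used Python 3.11.15 and numpy 2.4.6. The scripts were tested on simulated data. No 2 arrays were identical; the highest correlation was 0.9949.

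The genes and lists were chosen with earlier results of these data known. Named genes were the 3 members, all measured genes of the synthesis and SREBP lists, up to 3 called each way per comparison from the other lists, the 5 genes most like each member, and DUSP6, of which some are not printed. Alternatives were quantile normalization, median centring, removal of dim genes, log2(value + 16), all probe sets, a trended and robust prior, a replicate block, and leaving out each array. HMG-CoA reductase was not analysed here.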

Additional observations from a re-analysis of the deposited data

How the results depend on the processing

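No called change of the 3 genes turned its sign. Of their 126 values under the 7 other settings, 120 kept their side of the threshold, as did 210 of 216 with 1 array left out. Values not called turned sign in 3 cases under other settings, HMGCS1 with entinostat (-0.03, centring) and in DTE against DT (-0.01, quantile; -0.09, centring), and in 4 with 1 array out. Under quantile normalization and median centring MVD lost its call with entinostat (0.36 and 0.31), MVD gained one in DTE against E (0.62 and 0.53), and STARD4 gained one with DT (0.68 and 0.61). With 1 array left out these ranged from 0.37 to 0.59, 0.18 to 0.45 and 0.30 to 0.53. Of the differences between genes, all 12 values under other scales kept their call; with 1 array out, HMGCS1 minus MVD under DT ranged from 0.42 to 0.62 and STARD4 minus MVD from -0.55 to -0.27.

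Counts of called list members moved more. In the mevalonate arm, DTE against DT went from 1 to 2 (quantile) and 3 (centring), and DTE against E from 4 to between 2 and 5 with 1 array out. In squalene to cholesterol, DTE against DT went from 0 to 3 (quantile; 1 higher, 2 lower), 2 (centring; both lower), 2 (without dim genes; both higher), 3 (log2(value + 16); 2 higher, 1 lower), 2 (trended prior; both higher) and 1 (replicate block; higher), so the direction of the calls changed with the scale, and between 0 and 3 with 1 array out. DTE against E went from 3 to 7, 7 and 5 (quantile, centring, log2(value + 16)), the departure from 0 to 1 and 1 (quantile, centring), and E against DMSO from 5 to 3 (centring) and between 2 and 5 with 1 array out. DT against DMSO lay between 5 and 9. The cause was not tested, beyond fewer arrays where 1 was left out.

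Deviations of same-numbered arrays had r from -0.10 to 0.17 (median 0.05, 18 pairs) against -0.17 to 0.17 (median -0.03, 36 pairs) for other arrays; not every same-numbered pair was over 0.1, so the numbers were not taken to pair samples. This rule cannot show that pairing is absent. The replicate block called more genes in every comparison, such as 4228 in place of 3985 in DT against DMSO. In DTE against E it called 3933 in place of 3574. With the block the changes in DT against DMSO stayed at 1.16 for HMGCS1, 0.88 for MVD and 0.41 for STARD4.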
